A study of Mus musculus with 21 samples.

Results

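The 10 genes described here are Dcn, Lum, Ogn, Pdgfra, Pdgfrb, Fn1, Slc6a13, Aldh1a2, Islr and Vtn, out of 25239 gene symbols in the deposited tables. They are known as genes of fibroblasts, of vessel wall cells and of the meninges. They were picked by name after 2 hypothalamus libraries had been seen to score high for such genes, so the hypothalamus values below are a description, without a test. The choroid plexus values did not enter that choice and were tested.

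The study measured polyadenylated RNA by bulk sequencing in choroid plexus, the secretory tissue of the brain ventricles, and in hypothalamus of wild-type C57BL/6J mice. The treated mice overexpressed Ins2, a mouse insulin gene, in the choroid plexus, and the control mice are labelled as having had no treatment. There were 6 Ins2 and 5 control libraries of choroid plexus, and 5 Ins2 and 5 control libraries of hypothalamus (control replicates 1, 2, 3, 4 and 6). Age and sex are not given, the way in which Ins2 was introduced is not stated, and the column names of the hypothalamus controls begin with GFP although no GFP appears in their labels. Since the labels do not tie replicates to separate animals, the spread between libraries, and any p-value built on it, may be partly technical.

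Fibroblasts of the brain lie in the dura, arachnoid and pia, around larger vessels and in the stroma of the choroid plexus, while the neural tissue itself holds few of them. They secrete collagens and small leucine-rich proteoglycans, carry receptors for platelet-derived growth factors (PDGF), and in the meninges also express solute transporters and enzymes of retinoic acid synthesis. Several of these genes have other sources in brain: Pdgfra marks oligodendrocyte precursors, and Pdgfrb and Vtn mark pericytes of capillaries.

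Depth ran from 25.95 to 36.3 M reads in genes (M, 1000000) per choroid plexus library and from 27.4 to 62.1 M per hypothalamus library. Values are reads scaled by the authors' size factors, 1 table per tissue, each scaled on its own. Ins2 averaged 826 ± 162 in Ins2 choroid plexus and 430 ± 50.7 in control choroid plexus (SD, n = 6 and 5; limma adjusted p = 0.00594), and 9 of 10 hypothalamus libraries had 0 Ins2 reads. Hypothalamus libraries carried their own tissue's markers (summed value of 16 neuron and hypothalamus genes 138669 to 144558 in Ins2 and 137081 to 148412 in control libraries). Some libraries stood apart. Ins2 replicates 1 and 5 did so in hypothalamus by the members themselves. In choroid plexus, control 2 carried brain tissue transcripts, with a summed value of 11477 for 8 astrocyte genes against 3600 to 5742.5 in the other libraries, and control 5 had the lowest level of 3 of the 10 members (10.6% of all tested genes were lowest there). All 10 members passed the filter on low values, a mean of at least 10, in both tissues.

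In hypothalamus most members stood highest in single Ins2 libraries, while Pdgfra and Pdgfrb varied little between libraries. For 8 of the 10, Ins2 replicate 1 was the highest of the 10 libraries, where 7.4% of all tested genes were highest in that library. For 8 of the 10, Ins2 replicates 1 and 5 were the highest pair, where 1.83% of all tested genes had that pair on top. Since these libraries led to the choice of the genes, the counts describe the selection and nothing is read from them. The 10 members together took 0.0312% of the reads of Ins2 replicate 1, 0.0263% of those of Ins2 replicate 5 and 0.0190% to 0.0227% of those of the other 8 libraries. The mean log2(value + 1) of the 10 members lay 0.97 above the tissue mean in Ins2 replicate 1 and 0.49 above it in Ins2 replicate 5, and between -0.49 and 0.09 from it in the other libraries. In bulk tissue, more cells of a type and more RNA per cell cannot be told apart.

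**Figure D1:**
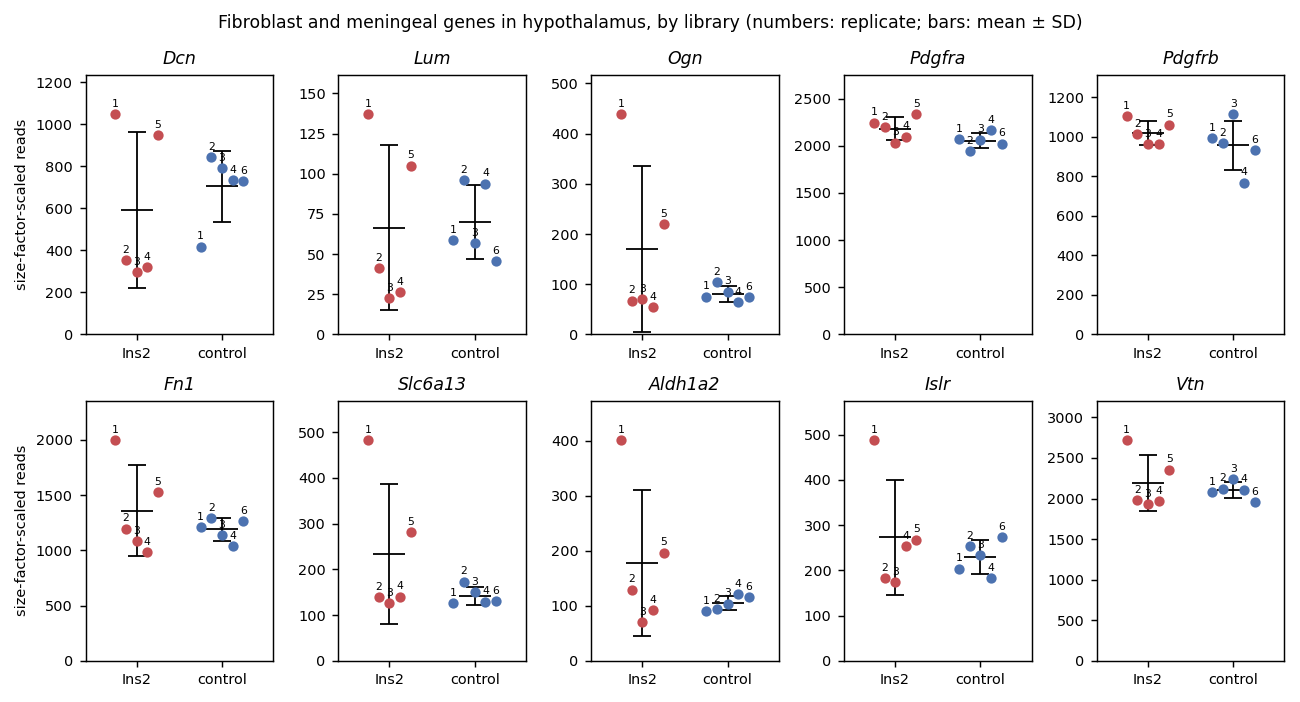
Size-factor-scaled reads of each member gene in the hypothalamus libraries, Ins2 in red and control in blue, with the replicate number beside each point and bars for the mean ± SD (n = 5 each). Ins2 replicates 1 and 5 are the top pair in 8 of the 10 panels, and the Ins2 SD of Ogn, 165, is mostly the distance of those libraries from the other 3.

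Decorin (Dcn), lumican (Lum) and osteoglycin (Ogn) are small leucine-rich proteoglycans that bind collagen fibrils in the matrix. Dcn (GRCm38, chr10:97479609-97518143, plus strand) had 1048, 353, 296, 321 and 948 scaled reads in Ins2 hypothalamus replicates 1 to 5, and 418, 844, 793, 735 and 730.3 in control replicates 1, 2, 3, 4 and 6. Its Ins2 libraries fell into a high pair above every control and a low trio below every control. The mean was 593 ± 372 in Ins2 and 704 ± 167 in control libraries (SD, n = 5 each), a fold of 0.741 (95% interval 0.491 to 1.12). Folds here are Ins2 over control from limma on log2(value + 1), which understates changes of low genes, and ranges in brackets after a fold are its 95% interval. Without Ins2 replicates 1 and 5, left out after their values were seen, the fold was 0.472 (0.369 to 0.604, 3 against 5 libraries). Leaving out high Ins2 libraries lowers the fold by that choice alone. This holds for every later hypothalamus fold without that pair, and nothing is read from the intervals of such folds.

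Lum lies beside Dcn on the same strand (chr10:97565128-97572703). It had 137, 41.4, 22.6, 26.4 and 105 scaled reads in the Ins2 libraries and 58.9, 95.8, 56.8, 93.9 and 45.4 in the control libraries, from 23 to 130 reads per library. The split was the one seen for Dcn, with Ins2 replicates 1 and 5 above and the other 3 Ins2 libraries below every control, and over the 10 libraries the log2 values of the neighbours had a Pearson r of 0.88 (Spearman rho 0.94). The fold of Lum was 0.771 (0.432 to 1.38), and 0.443 (0.274 to 0.716) without Ins2 replicates 1 and 5.

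Ogn (chr13:49608046-49624501, plus strand) was the member with the widest range. It had 439, 67.3, 69.9, 55.2 and 220.5 scaled reads in the Ins2 libraries and 75.3, 105, 85.2, 64.7 and 73.9 in the control libraries. Ins2 replicate 1 held 5.88 times the tissue median and Ins2 replicate 5 held 2.95 times, while the other 3 Ins2 libraries lay among the lower controls or below them. Unlike Dcn and Lum, Ogn had a fold above 1 with all libraries, 1.505 (0.841 to 2.69), and it was 0.803 (0.563 to 1.14) without Ins2 replicates 1 and 5.

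Slc6a13 and Aldh1a2 followed the pattern of Ogn. Slc6a13, a GABA and taurine transporter (also called GAT2) of the meninges and of peripheral organs (chr6:121300227-121337733, plus strand), had 482, 140, 126, 140.3 and 281 scaled reads in the Ins2 libraries and 127, 173, 151, 129 and 129.7 in the control libraries. Its Ins2 replicates 1 and 5 were above every control and the other 3 were within or just under the control range. The fold was 1.43 (0.968 to 2.11), and 0.959 (0.739 to 1.25) without the 2 high libraries.

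Aldh1a2, the retinaldehyde dehydrogenase that makes retinoic acid in the meninges (chr9:71215789-71296243, plus strand), had 401, 129, 70.9, 92.0 and 197 scaled reads in the Ins2 libraries and 90.2, 93.5, 104, 121 and 115 in the control libraries. Ins2 replicates 1, 5 and 2 were above every control, and Ins2 replicate 3 was below every control. The fold was 1.40 (0.893 to 2.20), and 0.909 (0.654 to 1.26) without Ins2 replicates 1 and 5. Over the 10 libraries the log2 values of Slc6a13 had r = 0.98 with Ogn (rho 0.66) and r = 0.92 with Aldh1a2 (rho 0.65). These correlations run over the same libraries and include the same high pair, and the rank correlations, which weigh that pair less, were lower.

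The promoters of these 3 genes are shown because they had the highest values relative to the tissue median in Ins2 replicate 1 (5.88 for Ogn, 3.65 for Aldh1a2 and 3.44 for Slc6a13). Each runs from 250 bases before to 50 bases after the start that RefSeq annotates (GRCm38.p6), 5′ to 3′ on the gene's strand, and Slc6a13 is shown at the first of its 3 annotated starts. Capitals mark matches, on either strand, to the TATA box, the GC box, the CCAAT box or the forkhead motif, whose letters are given after the sequences.
Ogn (chr13:49607765-49608064, plus strand): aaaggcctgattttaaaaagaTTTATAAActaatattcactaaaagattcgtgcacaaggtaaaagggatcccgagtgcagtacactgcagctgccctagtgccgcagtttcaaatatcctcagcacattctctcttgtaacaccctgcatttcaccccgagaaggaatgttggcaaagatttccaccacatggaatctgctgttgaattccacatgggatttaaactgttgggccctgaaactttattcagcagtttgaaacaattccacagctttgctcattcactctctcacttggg
Aldh1a2 (chr9:71215539-71215838, plus strand): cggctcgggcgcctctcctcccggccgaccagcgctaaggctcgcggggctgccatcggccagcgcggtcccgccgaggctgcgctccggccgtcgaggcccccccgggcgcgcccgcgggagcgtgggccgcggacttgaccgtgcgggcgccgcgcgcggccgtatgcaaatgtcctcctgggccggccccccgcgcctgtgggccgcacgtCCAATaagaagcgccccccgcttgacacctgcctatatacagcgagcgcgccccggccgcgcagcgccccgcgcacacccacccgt
Slc6a13 (chr6:121300038-121300337, plus strand): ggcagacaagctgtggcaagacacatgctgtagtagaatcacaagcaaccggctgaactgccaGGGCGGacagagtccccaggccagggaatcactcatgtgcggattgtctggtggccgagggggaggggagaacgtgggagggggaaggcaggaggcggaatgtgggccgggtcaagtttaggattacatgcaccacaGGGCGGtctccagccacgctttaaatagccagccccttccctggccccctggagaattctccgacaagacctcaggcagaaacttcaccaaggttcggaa
The 3 windows had little in common. Ogn was AT-rich, with 42.3% GC and 4 CpG pairs, and held 2 TATA box matches that overlap at -229 and -227 from the start, one on each strand. Aldh1a2 had 78.0% GC, 50 CpG pairs and a CCAAT box at -36. Slc6a13 had 59.0% GC, 11 CpG pairs and GC boxes at -187 and -50. The median over 32851 RefSeq promoters of this length was 52.7% GC and 7 CpG pairs. The TATA box, searched as TATAAA, stood in 13.6% of all these promoters. The GC box, searched as GGGCGG, stood in 35.7% of them and the CCAAT box, by its 5 letters, in 37.4%. The forkhead motif, searched as TGTTTAC, stood in 3.65% of them and in none of the 3 windows. The E box CANNTG, not capitalised, was in all 3 windows and in 72.3% of all promoters. Of the 10 members, 6 had a RefSeq promoter in the table used. These matches are letters in a window and are not evidence of binding.

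Fibronectin (Fn1) and vitronectin (Vtn) are adhesive glycoproteins bound by integrins. Fn1 (chr1:71585520-71653200, minus strand) had 1994, 1195, 1084, 982 and 1527 scaled reads in the Ins2 libraries and 1209, 1295, 1136, 1038 and 1266 in the control libraries. Ins2 replicates 1 and 5 were again above every control, at 1.66 and 1.27 times the median. The fold was 1.11 (0.914 to 1.34), and 0.914 (0.803 to 1.04) without them.

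Vtn (chr11:78499091-78502324, plus strand) had 2716, 1980.3, 1933, 1967 and 2357 scaled reads in the Ins2 libraries and 2081, 2123, 2243, 2110 and 1957 in the control libraries. Ins2 replicates 1 and 5 were above every control library, at 1.30 and 1.13 times the median, and the fold was 1.03 (0.923 to 1.16). Islr, a secreted or surface protein with leucine-rich repeats and an immunoglobulin domain (chr9:58156268-58204306, minus strand), had 487, 183, 173, 254 and 268 in the Ins2 libraries and 204, 253, 233, 183 and 274 in the control libraries. Only Ins2 replicate 1 was apart for Islr, at 2.003 times the median, since Ins2 replicate 5 lay under control 6. Its fold was 1.12 (0.829 to 1.51), and 0.884 (0.688 to 1.14) without Ins2 replicates 1 and 5. In the annotation, 6.74% of its exon bases lie in 2 genes on the same strand, Islr2 among them.

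The PDGF receptors varied little between the libraries. Pdgfra, the receptor of fibroblasts and of oligodendrocyte precursors (chr5:75152292-75198215, plus strand), had 2246, 2195, 2034, 2097 and 2336 scaled reads in the Ins2 libraries and 2073, 1947, 2066, 2164 and 2024 in the control libraries. Ins2 replicates 5 and 1 were its highest libraries, at 1.12 and 1.08 times the median. Its highest library held 1.20 times the reads of its lowest, against 7.95 times for Ogn. In the annotation, 2 genes on the opposite strand cover 6.21% of its exon bases, and the strand setting of the counting is not given in the sources used here, so their reads may be included.

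Pdgfrb, the receptor of pericytes and of some fibroblasts (chr18:61045150-61085061, plus strand), had 1102, 1011, 964, 961 and 1060.2 scaled reads in the Ins2 libraries and 994, 968, 1113, 768 and 933 in the control libraries. The highest library was control 3, and control 4 was lowest. The folds were 1.06 (0.983 to 1.15) for Pdgfra and 1.07 (0.952 to 1.21) for Pdgfrb. In Ins2 replicates 1 and 5 both genes stayed within 1.12 times the median. Over the 10 libraries Pdgfra had an r of 0.56 with Ogn (rho 0.12) and of 0.73 with Aldh1a2 (rho 0.70). Pdgfrb had an r of 0.54 with Ogn (rho 0.70) and of 0.38 with Aldh1a2 (rho 0.36). Beside Pdgfra, the summed value of 11 other oligodendrocyte precursor markers ran from 38463 to 40889 in Ins2 and from 35526 to 40221 in control libraries. Beside Pdgfrb, the sum of 15 other pericyte and smooth muscle markers ran from 9497 to 11110 in Ins2 and from 9620.3 to 10978 in control libraries.

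By all libraries, 8 of 10 members had a fold above 1 in Ins2 against control hypothalamus, where 50.3% of all tested genes did, and without Ins2 replicates 1 and 5 only Pdgfra and Pdgfrb did, at 1.03 each. With those 2 libraries left out, the folds of Ogn, Slc6a13, Aldh1a2, Fn1, Islr and Vtn went from above to below 1. Those of Dcn and Lum lay further below 1. The 2 libraries were left out for their high values, so lower folds followed from that choice and nothing is read from them. The median log2 fold change of the members was 0.12, against 0.0011 over all tested genes. Over all 16363 genes tested in hypothalamus, limma called 0% after adjustment and gave 9.92% an unadjusted p under 0.05, while edgeR and DESeq2 on recovered whole reads called 0 and 41 genes. Since the members were chosen from these libraries, no test of them is read here.

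Which other genes had the 2 libraries on top was counted in lists for the same cells and for their neighbours. These libraries led to the choice of the members, and the lists were chosen with earlier results known. The list counts are therefore a description, and nothing is read from them. Of 13 tested genes in a list of meningeal solute carriers and Ptgds, 10 were highest in Ins2 replicate 1. Of the same 13, 8 had Ins2 replicates 1 and 5 as the top pair, the largest pair count among these lists. The most abundant of them, Slc1a3, a glutamate transporter of astrocytes, was not among these (23564 ± 678 in Ins2 and 23756 ± 532 in control libraries). The next, Ptgds, the prostaglandin D synthase made by meninges and choroid plexus, reached 33360 in Ins2 replicate 1, and averaged 15293 ± 10913 in Ins2 and 9390.2 ± 2046 in control libraries. Further carriers, named after their values were seen, were Slc13a4, a sulfate transporter (568.25 in Ins2 replicate 1, tissue median 83.3), Slc22a6, an organic anion transporter (263 and 26.7), and Slc6a20a, an amino acid transporter (824 and 277).

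Of 18 mesenchymal transcription factor genes, 8 were highest in Ins2 replicate 1 and 6 had the top pair. Their most abundant, Zic1, averaged 1074 ± 191 in Ins2 and 1025 ± 349 in control libraries. Of 15 arachnoid and dura genes the counts were 8 and 4, of 14 pial and perivascular fibroblast genes 6 and 3, of 24 fibrillar collagen and matrix genes 10 and 5, and of 12 small leucine-rich proteoglycans 5 and 2. Of 15 retinoid pathway genes they were 6 and 3. Among the members' own pathways the counts were 0 and 1 of 5 PDGF genes (the ligands and the receptor-like Pdgfrl). They were 0 and 0 of 9 integrins that bind fibronectin or vitronectin, and 1 and 1 of 5 Slc6 transporters. The background for these counts is the 7.4% and 1.83% of all tested genes given above.

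Lists for other cell types were counted in the same way. Ins2 replicate 1 was highest for 3 of 5 border macrophage genes, 3 of 15 pericyte and smooth muscle genes, 2 of 12 choroid plexus epithelium genes, 1 of 8 pituitary genes, 1 of 13 endothelial genes, 1 of 11 oligodendrocyte precursor genes, 1 of 16 neuron and hypothalamus genes and 0 of 8 astrocyte genes. Ins2 replicates 1 and 5 were the top pair for 2 pericyte and smooth muscle genes, 1 choroid plexus epithelium gene and 1 pituitary gene. The pair count was 0 for the border macrophage, endothelial, oligodendrocyte precursor, neuron and astrocyte lists. The summed value of all 9 listed border macrophage genes, with those under the filter on low values, was 862 in Ins2 replicate 1. It was 496 to 610 in the other Ins2 libraries and 417 to 635 in the control libraries. These markers thus moved with the members in that library, and their part in the members' values was not tested. All 13 listed choroid plexus epithelium markers summed to 9803 in Ins2 replicate 1 and 9167 in Ins2 replicate 5, within the 8861 to 10209 of the control libraries. The mean of 8 pituitary markers was high in Ins2 replicate 1, 1.97 log2 units above its tissue mean, but also in controls 4 and 6, 1.46 and 1.41 above. No gene of any list passed limma's adjusted test in hypothalamus.

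**Figure D2:**
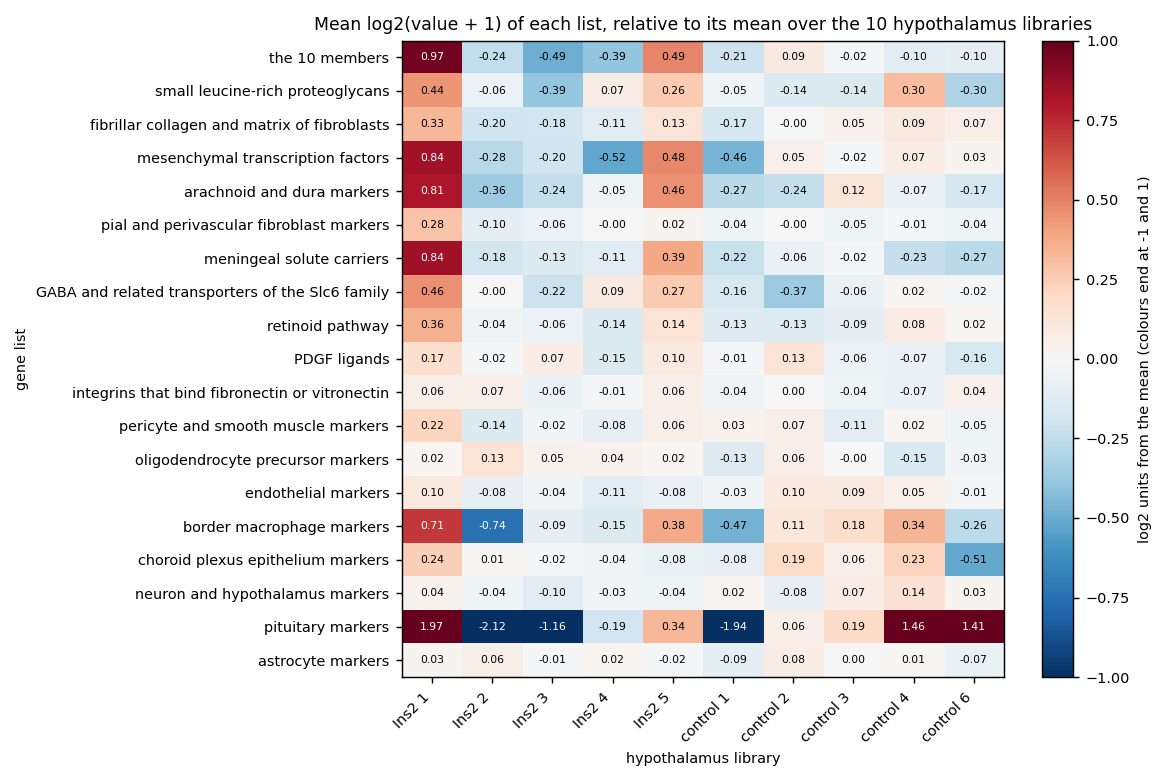
Mean log2(value + 1) of each gene list in each hypothalamus library, as the difference from the list's mean over the 10 libraries; red is above and blue below, colours end at -1 and 1, and the number is printed in each cell. The members, the mesenchymal transcription factors, the arachnoid and dura genes and the meningeal solute carriers have their highest values, 0.81 to 0.97, in Ins2 replicate 1 and their next highest, 0.39 to 0.49, in Ins2 replicate 5, whereas the astrocyte and neuron lists stay between -0.10 and 0.14.

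The genes outside the 10 whose log2 values ran most like the members' mean in hypothalamus, among 14247 genes with a mean of at least 50, included Pcolce, Igf2, Cyp26b1 and Bgn. Pcolce, which enhances procollagen processing, had r = 0.94 (rho 0.77), with 325 scaled reads in Ins2 replicate 1, 199 in Ins2 replicate 5 and 117 to 156 in the others. Igf2, an insulin-like growth factor made by meninges and choroid plexus, had r = 0.94 (rho 0.68), with 3301, 1724 and 685 to 960 (in the annotation 62.8% of its exon bases are shared with same-strand genes). Without Ins2 replicates 1 and 5 these correlations dropped to 0.61 and 0.46. Cyp26b1, which degrades retinoic acid, had r = 0.94 (0.73 without the pair). Bgn, the proteoglycan biglycan, had r = 0.93, and 0.87 without the pair. Each is a description over 10 libraries that share depth and source.

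In choroid plexus, the tissue in which Ins2 was overexpressed, the members were tested between Ins2 and control libraries. By limma's adjusted test 0 of 10 members passed, where 0.0138% of 14533 tested genes did (2 genes). At an unadjusted p under 0.05, 1 member passed, Fn1, where 6.21% of genes did, and edgeR and DESeq2 called 0 members. Of the 10 folds 8 were below 1, where 51.6% of all tested genes were, and the median log2 fold change of the members was -0.09, against -0.0045 over all tested genes.

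Fn1 had the smallest p. It had 102, 154 and 183 scaled reads (lowest, median and highest of 6) in Ins2 choroid plexus, and 317, 251.3, 274, 228 and 114 in controls 1 to 5. Every Ins2 library lay below controls 1 to 4, and control 5 lay inside the Ins2 range. The mean was 146 ± 30.3 in Ins2 and 237 ± 76.0 in control libraries (SD, n = 6 and 5), a fold of 0.638 (0.466 to 0.874; limma adjusted p = 0.614; exact two-sided permutation p = 0.0455, where 0.00216 is the smallest possible). Without controls 2 and 5, a choice made after the data were seen, the fold was 0.530 (limma adjusted p = 0.179). Control 5 was the lowest control for Fn1, so leaving it out lowers the fold by that choice. Annotated exons of Apol7d on the opposite strand cover 2.50% of the exon bases of Fn1.

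Aldh1a2 had the fold farthest from 1 and the fewest reads, 4 to 113 per library. It had 3.77, 16.7 and 40.6 scaled reads in Ins2 choroid plexus, and 116, 62.8, 32.6, 13.9 and 9.71 in controls 1 to 5. The Ins2 libraries lay below controls 1 and 2 and overlapped the other 3. The fold was 0.519 (0.217 to 1.24; limma adjusted p = 0.852; exact permutation p = 0.247). Its fold without controls 2 and 5 was 0.443, where control 5 was again the lowest control. Slc6a13 had 32.0, 73.1 and 84.5 in Ins2 libraries and 103, 127, 57.6, 74.3 and 44.3 in controls, a fold of 0.839 (0.553 to 1.27; limma adjusted p = 0.927).

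Dcn, Lum and Pdgfrb varied together across the choroid plexus libraries, in both groups. Dcn had 333, 460.4 and 843 scaled reads in Ins2 libraries and 1185, 426, 883, 416 and 297 in controls 1 to 5. Lum had 137, 223 and 484 in Ins2 libraries and 353, 249, 402, 178 and 103 in controls. Pdgfrb had 101, 287 and 374 in Ins2 libraries and 333, 201.4, 424, 227 and 69.1 in controls. All 3 genes were high in Ins2 replicates 1 and 3 and controls 1 and 3 and low in Ins2 replicates 2 and 4 and control 5. Over the 11 libraries r was 0.90 for Dcn and Lum, 0.80 for Dcn and Pdgfrb and 0.91 for Lum and Pdgfrb (rho 0.91, 0.84 and 0.89).

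None of the 3 separated the groups. Folds were 0.896 for Dcn (0.573 to 1.40; limma adjusted p = 0.961), 1.03 for Lum (0.634 to 1.69; adjusted p = 0.989) and 1.09 for Pdgfrb (0.619 to 1.90; adjusted p = 0.979), and together these intervals reach from 0.573 to 1.90. Single libraries set the direction of Pdgfrb, whose log2 fold change of 0.12 was -0.29 without control 5, -0.02 without Ins2 replicate 1 or 5, below 0 also without Ins2 replicate 3, and 0.36 without control 3. Without controls 2 and 5 the folds were 0.662 for Dcn, 0.812 for Lum and 0.732 for Pdgfrb. Control 5 was the lowest library for all 3 genes. Leaving it out lowers their folds by that choice alone, and nothing is read from these folds. The sum of 15 pericyte and smooth muscle markers ran from 1565 to 3665 in Ins2 and from 1647 to 3324 in control libraries. It was lowest in Ins2 replicate 4 and control 5, and its part in these values was not tested.

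**Figure D3:**
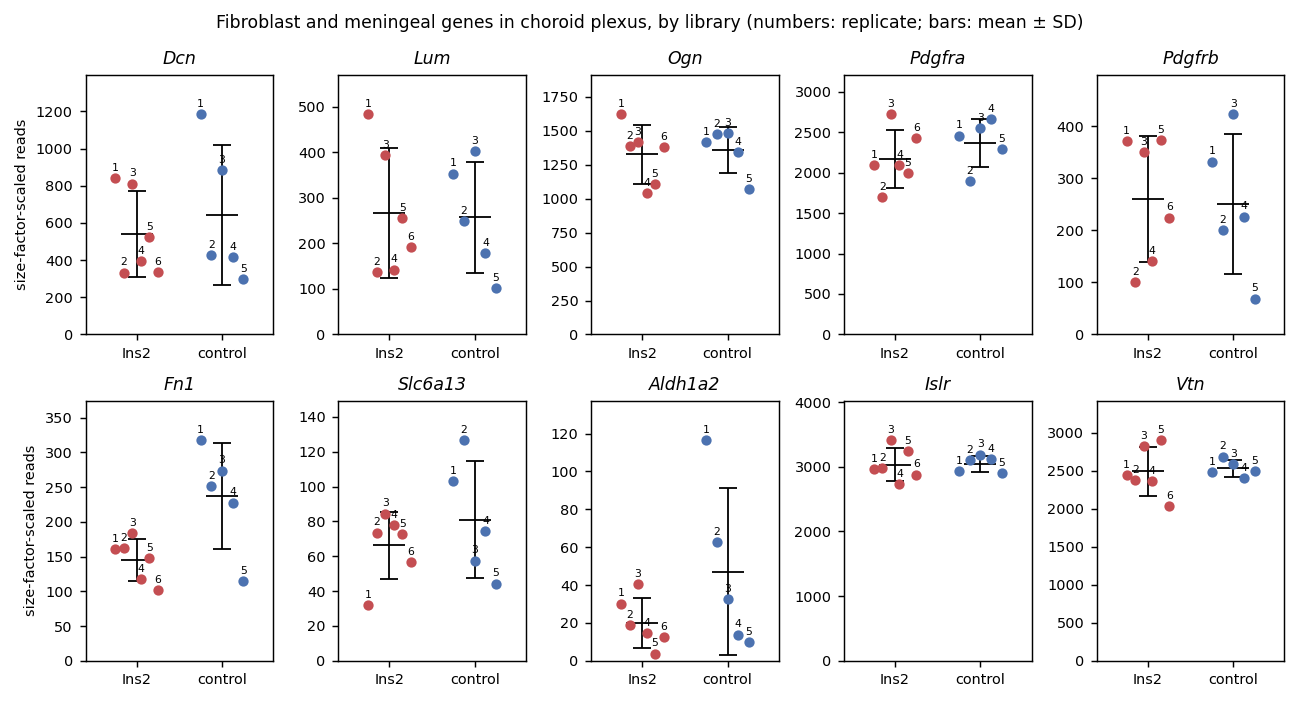
Size-factor-scaled reads of each member gene in the choroid plexus libraries, Ins2 in red (n = 6) and control in blue (n = 5), with the replicate number beside each point and bars for the mean ± SD. Islr and Vtn are flat across libraries and groups, Dcn, Lum and Pdgfrb spread over a wide range in both groups, and Fn1 has 4 of 5 controls above every Ins2 library.

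The other 4 members were among the steadier of the 10. Islr had 2726, 2971 and 3406 scaled reads in Ins2 libraries and 2927, 3104, 3189, 3112 and 2897 in controls, a coefficient of variation of 6.38% over the 11 libraries and a fold of 0.994 (0.912 to 1.08; limma adjusted p = 0.989). Vtn had 2035, 2408 and 2895 in Ins2 libraries and 2483, 2684, 2586, 2396 and 2493 in controls, a variation of 9.49% and a fold of 0.978 (0.877 to 1.09; adjusted p = 0.970). The Ins2 range held every control for both genes.

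Ogn, the gene with the widest range in hypothalamus, had 1044, 1382 and 1623 in Ins2 choroid plexus and 1415, 1474, 1483, 1341 and 1074 in controls, a variation of 13.9% and a fold of 0.973 (0.835 to 1.13; limma adjusted p = 0.975). Pdgfra had 1696, 2089 and 2722 in Ins2 libraries and 2457, 1893, 2549, 2659 and 2288 in controls, a variation of 14.7% and a fold of 0.912 (0.786 to 1.06; adjusted p = 0.895). The groups overlapped over most of their range for these genes, and the intervals of Islr, Vtn and Ogn together reach from 0.835 to 1.13.

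**Figure D4:**
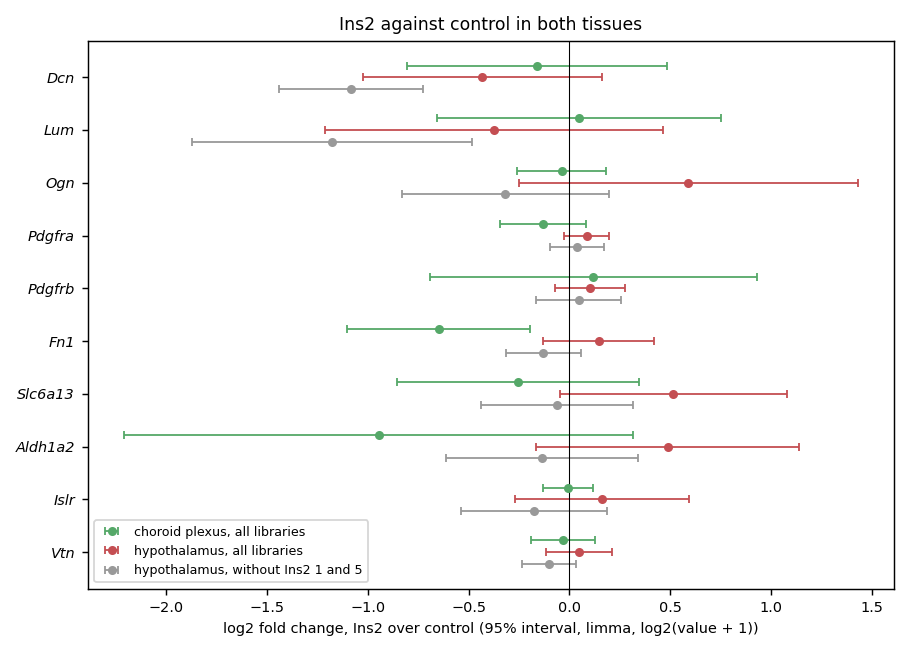
Log2 fold change, Ins2 over control, of each member with its 95% interval from limma, in choroid plexus with all libraries (green), in hypothalamus with all libraries (red) and in hypothalamus without Ins2 replicates 1 and 5 (grey). In choroid plexus only the interval of Fn1 lies off 0, at -1.10 to -0.19. The intervals are not adjusted for the number of genes, and Fn1 did not pass the adjusted test (limma adjusted p = 0.614). In hypothalamus the values of Ogn, Slc6a13 and Aldh1a2 move to the left of 0 when the 2 libraries are left out. Dcn and Lum then lie near -1. That move follows from leaving out high libraries, and nothing is read from the grey intervals.

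Lists for the members' pathways and neighbours held no called gene in choroid plexus. Median log2 fold changes were 0.11 for 11 small leucine-rich proteoglycans, -0.08 for 24 fibrillar collagen and matrix genes, 0.03 for 17 mesenchymal transcription factors, -0.10 for 11 arachnoid and dura genes, -0.02 for 14 pial and perivascular fibroblast genes and -0.11 for 13 meningeal solute carriers. They were -0.10 for 13 retinoid pathway genes, -0.06 for 5 PDGF genes (the ligands and Pdgfrl) and -0.07 for 10 integrins, against -0.0045 over all tested genes. The most abundant proteoglycan, Prelp, averaged 16255 ± 1227 in Ins2 and 16423 ± 1267 in control libraries. Ptgds averaged 29328 ± 2609 in Ins2 and 31970.0 ± 2005 in control libraries (limma adjusted p = 0.804), and Sparc, a collagen-binding matrix protein, 12718 ± 1037 and 13378 ± 1033 (adjusted p = 0.901).

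The genes most like the members' mean in choroid plexus, among 12169, were Aox3, Rbms3, Svep1, Crabp1 and Ltbp1, with r from 0.90 to 0.92 over 11 libraries and 0.82 to 0.91 without controls 1 and 5, which lay farthest from the median. Crabp1, a retinoic acid binding protein, ranged from 17.8 to 101 scaled reads in Ins2 and from 11.9 to 136 in control libraries. Ltbp1, a matrix protein that stores latent TGF-beta, ranged from 42.2 to 70.2 in Ins2 and from 43.6 to 81.4 in control libraries. None of these 5 was among the 5 most alike in hypothalamus.

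Per length of exon (reads per kilobase per M reads), the members stood in a different order in the tissues, whose tables were scaled separately and are given side by side. In choroid plexus Vtn averaged 41.7 ± 3.79, Islr 38.2 ± 2.23 and Ogn 17.6 ± 2.37 over 11 libraries. Then came Pdgfra at 7.62 ± 1.12, Lum at 3.62 ± 1.74, Dcn at 3.39 ± 1.70 and Pdgfrb at 1.58 ± 0.744. Lowest were Slc6a13 at 0.849 ± 0.303, Fn1 at 0.540 ± 0.202 and Aldh1a2 at 0.482 ± 0.486. The top pair lay within their spread of each other, as did Lum and Dcn and the 3 lowest.

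In hypothalamus Vtn averaged 29.9 ± 3.43 over 10 libraries and stood alone at the top. Pdgfra at 5.97 ± 0.329 and Pdgfrb at 5.09 ± 0.509 followed, and then Dcn at 3.14 ± 1.35, Fn1 at 3.08 ± 0.717 and Islr at 2.64 ± 0.956, which did not differ beyond their spread. Slc6a13 at 1.83 ± 1.10, Aldh1a2 at 1.76 ± 1.21, Ogn at 1.38 ± 1.32 and Lum at 0.790 ± 0.437 were lowest and overlapped. Islr and Ogn, next to Vtn at the top in choroid plexus, stood below both PDGF receptors in hypothalamus. The 4 genes with the lowest levels in hypothalamus were those in which Ins2 replicates 1 and 5 stood highest relative to the tissue median.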

How the data were processed

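Bulk RNA-seq tables of choroid plexus (11 libraries) and hypothalamus (10 libraries) were used. Each tissue has 1 deposited table of signal values, which the authors made from counts per gene by DESeq2 size factor scaling, per the labels. Libraries were poly(A)-selected and dUTP-marked after PicoPure extraction, per the labels' protocols. The submitters' processing notes name HISAT2, featureCounts, DESeq2 and build GRCm38 (mm10), and neither tool versions nor the strand setting were given in the sources used here. Low values were whole multiples of 1 step per library, and 100% of values became whole reads within 0.02 on division by it, so depth and count tests rest on recovered reads.

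Limma 3.58.1 (R 4.3.3; lmFit and eBayes with a trend) was fitted within each tissue on log2(value + 1) for genes with a mean of at least 10, with no covariate and with Benjamini-Hochberg adjustment at 0.05 over all tested genes (14533 and 16363). For members in choroid plexus, all 462 assignments of the libraries to the groups gave an exact two-sided permutation p. The limma fit was also run on simulated counts drawn independently for each gene and library. Libraries in which sets of genes shift together were not simulated. EdgeR 4.0.16 and DESeq2 1.42.0 on recovered reads, other pseudocounts, filters, scalings, array weights and leaving out libraries were alternatives. The members and lists were chosen with earlier results of these data known. Named genes were the 10 members, the 2 most abundant genes of each list (some are given here), the 5 genes most like the members' mean in each tissue (1 of hypothalamus is not reported here), and Ins2; others are marked as named after their values were seen. Coordinates and overlaps are from GENCODE M21 (GRCm38), promoters from RefSeq (GRCm38.p6). Replicate numbers showed no pairing of the groups: same-numbered deviations correlated at -0.15 to 0.14 in choroid plexus and -0.07 to 0.0089 in hypothalamus. For some hypothalamus libraries the sample codes in the titles differ from the replicate numbers, and a pairing by code was not checked.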

Additional observations from a re-analysis of the deposited data

Results flagged for a closer look

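Of 40 groups of member values checked, 1 held a library far from the others. The hypothalamus groups are of genes picked from those libraries, so the count is not set against chance. The check uses the gap between an end value and its neighbour. A pair of high libraries, such as Ins2 replicates 1 and 5, can therefore hide each other. In hypothalamus, Dcn was at 418 scaled reads in control replicate 1, the lowest of the 5 control libraries, and the next lowest was 730.3. The gap was 0.733 of the whole range, above the limit of 0.710 for 5 samples. Without that control the log2 fold change of Dcn, Ins2 against control, was -0.69, and it was -0.43 with all libraries. Leaving out the lowest control lowers the fold by that choice alone, and nothing is read from the change.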

How the results depend on the processing

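No member passed the adjusted threshold in choroid plexus under any alternative run, including each library left out in turn. In choroid plexus 2 genes were called with all libraries; 1 was called with a mean of at least 50, 6 with array weights (2 higher, 4 lower) and 34 with DESeq2 (3 higher, 31 lower), and 1 to 4 with a library left out. In hypothalamus 0 genes were called by limma (1624 at an unadjusted p under 0.05; edgeR 0), but 41 with DESeq2, 57 with the replicate block and 0 to 18 with a library left out (18 without control 6). The replicate block, whose numbers showed no pairing of the samples, left 2 calls in choroid plexus. In each case the cause was not tested.

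Some member log2 fold changes in choroid plexus changed sign. Those of Lum (-0.30) and Pdgfrb (-0.45) did so without controls 2 and 5, where control 5 was the lowest library of both genes. Islr did so with equal totals (0.012), edgeR (8.3e-05) or the replicate block (0.0054), and Vtn with the block (0.025). With a library left out Dcn ran from -0.39 to 0.11, Lum from -0.24 to 0.25, Ogn from -0.12 to 0.027, Pdgfrb from -0.29 to 0.36, Islr from -0.043 to 0.021 and Vtn from -0.077 to 0.025. The sign changed without control 1 or 3 for Dcn, without Ins2 replicate 1 or 3 or control 4 or 5 for Lum, without Ins2 replicate 4 or 5 for Ogn, without Ins2 replicate 1, 3 or 5 or control 5 for Pdgfrb, without Ins2 replicate 4 or 6 or control 3 for Islr, and without Ins2 replicate 6 for Vtn. In hypothalamus, besides the turns without Ins2 replicates 1 and 5, the sign changed without Ins2 replicate 1 alone for Fn1 (-0.0055), Islr (-0.074) and Vtn (-0.033), and with the block for Vtn (-0.0078). List medians changed sign under several alternatives in both tissues. Among them in hypothalamus were those of the PDGF ligands with Pdgfrl (-0.10 without Ins2 replicates 1 and 5), integrins (-0.0062 to 0.09 with a library left out) and pituitary markers (0.026 without control 6). Lum in hypothalamus and Aldh1a2 in choroid plexus rest on few reads, and counting error limits their values.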

Other observations

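The genes whose log2 values in hypothalamus ran most like Dcn over the 10 libraries, looked up after its values were seen, were Ces1d, Gsn, Anxa1, Crispld2 and Pitx1, a pituitary transcription factor, with r from 0.92 to 0.97. They kept an r of 0.89 to 0.96 without Ins2 replicates 3 and 4, which lay farthest from the median. Ces1d, a carboxylesterase, had 209 scaled reads in Ins2 replicate 1, 237 in Ins2 replicate 5 and 31.5 to 275 in the other libraries. Pitx1 had 151 in Ins2 replicate 1, 136 in Ins2 replicate 5 and 0 to 123 in the others, 0 in control 1, the control in which Dcn was lowest. The mean of 8 pituitary markers lay -2.12 and -1.16 from its tissue mean in Ins2 replicates 2 and 3 and -1.94 in control 1, libraries in which Dcn was at 353, 296 and 418. The marker mean lay -0.19 from its tissue mean in Ins2 replicate 4, where Dcn was at 321. How these markers bear on the level of Dcn was not tested.

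Some arachnoid and mesenchymal genes of low level, named after their values were seen, also stood high in Ins2 replicate 1. Slc47a1, an organic cation exporter of the arachnoid, had 162 scaled reads there and a tissue median of 17.2, and Foxc2, a forkhead transcription factor of mesenchyme, had 134 and 15.5. Osr1, a zinc finger factor of connective tissue, had 157 there, and its next highest library had 15.5, so for Osr1 Ins2 replicate 5 did not stand out.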
